A study of Mus musculus with 4 samples.

Results

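The response of the heart to pressure load was compared between mice with and without the Hippo pathway gene WW45 in cardiomyocytes. For each gene, the load response is the log2 level after transverse aortic constriction (TAC) minus that at baseline. The difference of load responses is the response in knockout hearts minus the response in control hearts, so a value above 0 means that the response was more positive in the knockout, and a value below 0 that it was more negative. All 4 libraries of the series enter this difference, and it was computed for all 12408 genes listed in every library. RNA was sequenced from whole hearts of C57BL/6 mice, 3 months old. Control mice (CT) were WW45 flox/flox, meaning that both copies of the gene carried recombination sites. Knockout mice (cKO) were flox/flox and also carried alpha-MHC-CRE, a recombinase expressed from the alpha-myosin heavy chain promoter, which is active in cardiomyocytes. Within each genotype 1 mouse was at baseline and 1 had undergone 4 weeks of TAC, a surgical narrowing of the aorta against which the left ventricle must pump. The operation and the load cannot be told apart because no library is labelled as sham-operated, nor can the loss of WW45 be told apart from the presence of the recombinase, since no library carries the recombinase without the floxed gene.

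Hippo is a kinase cascade in which the scaffold protein SAV1, the product of WW45, helps the MST kinases activate the LATS kinases. LATS phosphorylates the coactivators YAP and TAZ, which otherwise enter the nucleus and, with TEAD factors, switch on genes of growth and of the cytoskeleton. A heart under pressure load re-expresses genes of the fetal heart, such as the natriuretic peptides and skeletal alpha-actin, lays down collagen, and draws less on fatty acids.

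Each group held 1 library, so the difference of load responses has no replicate check and no p-value. It compares 4 libraries, not the conditions. A gene was called when the difference was at least 2-fold (1 on the log2 scale) and its 95% counting interval excluded 0. That interval covers the sampling of reads only, without the spread between mice, and PCR copies of a molecule count as separate reads. The libraries held between 1587840 and 2796547 reads, and the median gene had 30 to 48 reads. Levels are CPM, reads scaled to a common library size, which are relative to the library and not to cells: fewer cells of a type and less RNA per cell cannot be told apart in whole-heart RNA. The libraries matched their labelled tissue, with 10 of 10 cardiomyocyte markers listed and a summed level of 134100, 127500, 115900 and 101400 CPM, in the order CT baseline, CT TAC, cKO baseline and cKO TAC. This order is kept for all 4-library values below, and each difference of load responses is followed by its counting interval. Sav1, the deleted gene, was at 49.3, 35.4, 39.8 and 46.2 CPM, so under load the library labelled cKO did not have less of it than the library labelled CT. Its difference of load responses was 0.69 (0.06 to 1.31), which was not called. Gene-level reads do not show whether the floxed exons were lost, and other cells of the heart keep the gene, so these values check the labels weakly.

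Of the 12408 genes, 492 (3.97%) were called above 0 and 565 (4.55%) below 0, which makes 1057 (8.52%) in either direction. Another 1415 genes were at least 2-fold apart with an interval that included 0. The median difference over all genes was -0.01, and 50.7% of genes lay below 0. Just inside the 2-fold limit lay Rmdn2 at 1.0007 and Rsph3b at -1.0024, and just outside it Nrp1, a coreceptor of vascular growth factors, at -0.999 (-1.26 to -0.74), so genes beside the limit hardly differ. The difference of load responses had the smallest spread over genes of the 3 contrasts that can be drawn from the 4 libraries with equal weights. Among the 5931 genes with a mean of at least 20 CPM, its SD was 0.59 on the log2 scale, against 0.97 for load summed over the genotypes and 0.65 for genotype summed over the states. The median counting error of a gene in these contrasts was 0.29.

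The load responses of the genotypes are related but far from alike. Across genes, Pearson's r of the 2 responses was 0.309 and Spearman's rho 0.305. Genes are not independent replicates and differ in depth, and the 2 responses share no library. In CT, 751 genes (6.05%) were called higher after TAC and 580 (4.67%) lower, by the same limits. In cKO, 457 genes (3.68%) were called higher and 351 (2.83%) lower. The CT libraries held 2796547 and 2064655 reads and the cKO libraries 1587840 and 1772153. A change of the same size is thus called more readily in CT, and the numbers of calls are not on equal terms. Of the genes higher in CT, 77.4% also had a response above 0 in cKO, but only 164 (21.8%) were called there, and the median response was 1.48 in CT against 0.56 in cKO. Read from the other side, 164 (35.9%) of the genes called higher in cKO were also called in CT, and the median was 1.40 in cKO against 0.79 in CT. A response is smaller in the genotype that was not used to choose the genes in part because of that choice, so both directions are given. For genes called higher, the median thus dropped further from CT to cKO than from cKO to CT. For genes called lower the medians were -1.36 in CT against -0.33 in cKO, and -1.39 in cKO against -0.37 in CT, which is nearly the same drop in both directions. Called in opposite directions were 11 genes that were higher in CT and lower in cKO, and 14 that were lower in CT and higher in cKO. The called differences were then sorted by the responses that make them up. Of the 565 genes called below 0, 219 (38.8%) were called higher with load in CT and not called in cKO, 115 (20.4%) were called lower in cKO and not called in CT, and 196 (34.7%) were called in neither. Of the 492 called above 0, 205 (41.7%) were called lower in CT and not called in cKO, 93 (18.9%) higher in cKO and not called in CT, and 176 (35.8%) in neither.

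**Figure D1:**
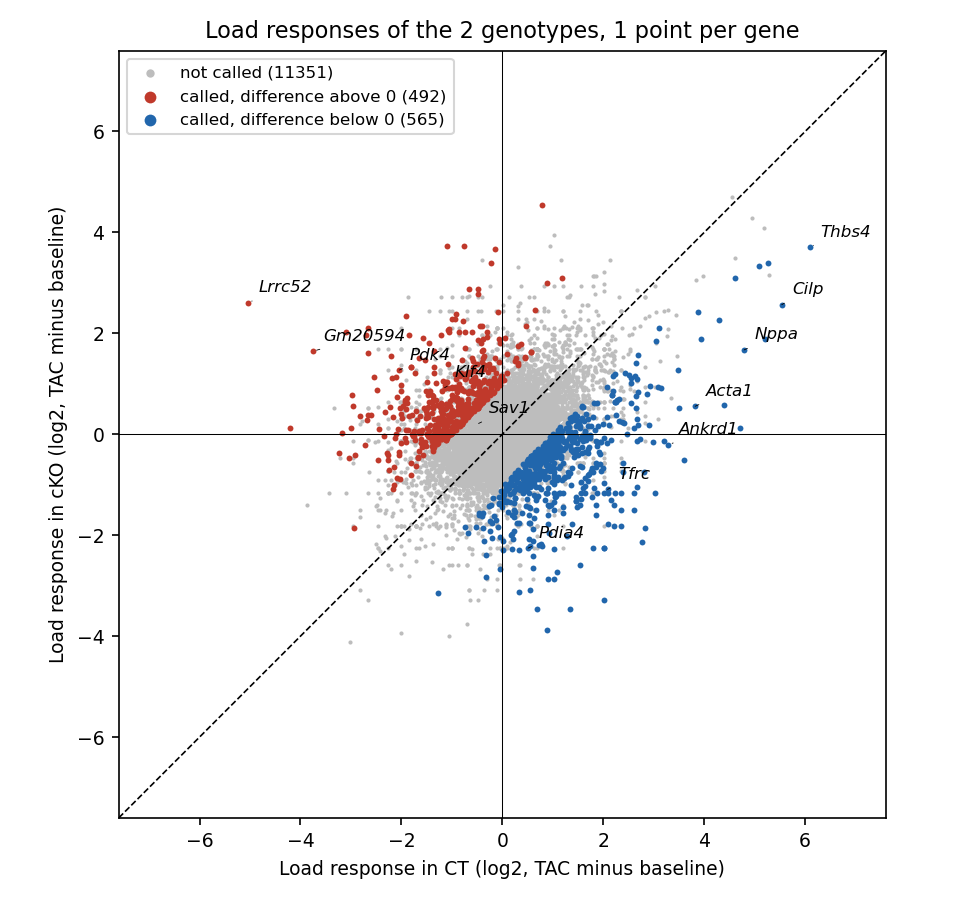
Load response in cKO (vertical axis, log2) against that in CT (horizontal axis, log2), 1 point per gene, with the line of equal responses dashed. The 492 genes called above 0 (red) lie above the line and the 565 called below 0 (blue) lie under it.

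A difference of differences can arise from any of the 4 libraries, so the levels behind each call were sorted by the library that stands apart. A library was taken to stand apart when the gap from its log2 level to the nearest of the others exceeded the range of those 3. By this rule 610 of the 1057 called genes (57.7%) had 1 library standing apart, against 51.5% of all genes. Among the genes called below 0, the CT baseline library was low in 142, the cKO TAC library low in 93, the CT TAC library high in 54 and the cKO baseline library high in 40. Among those called above 0, the CT TAC library was low in 117, the CT baseline library high in 74, the cKO baseline library low in 48 and the cKO TAC library high in 42. In a further 230 genes the levels formed crossed pairs: CT baseline and cKO TAC lay together, and CT TAC and cKO baseline lay together on the other side of a wider gap. In these the unloaded knockout resembled the loaded control. Of the called genes 387 (36.6%) had a CT library apart and 223 (21.1%) a cKO library, against 28% and 23.5% of all genes. Crossed pairs made up 21.8% of called genes and 6.08% of all genes. The difference is the summed log2 level of 1 pair minus that of the other, so calling genes by it favours crossed pairs. The shares of all genes therefore do not show what the choice of genes alone would give.

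**Figure D2:**
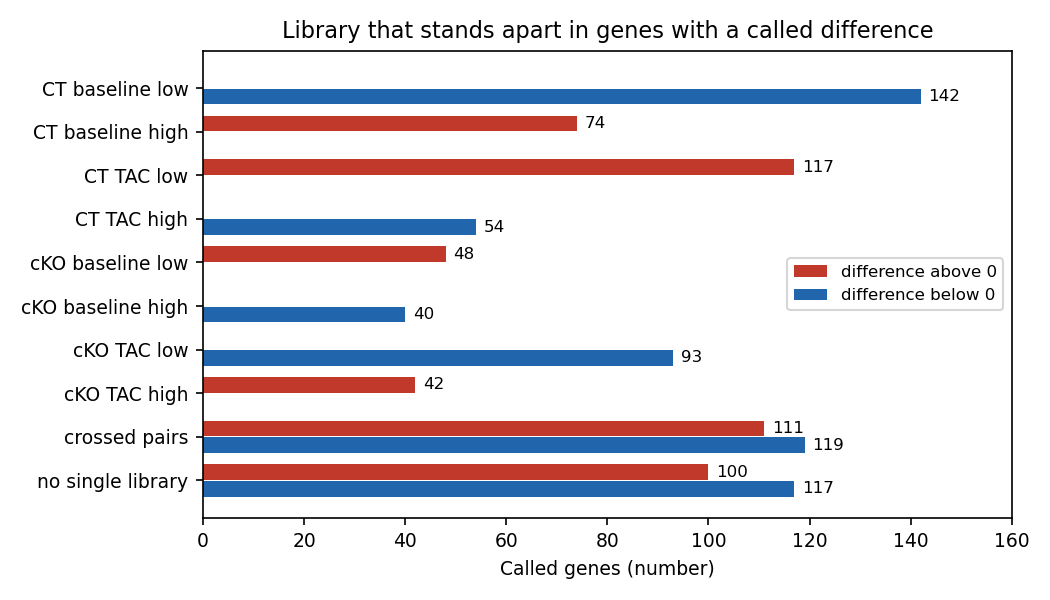
Number of called genes (horizontal axis) by the library that stands apart and its side, for differences above 0 (red) and below 0 (blue). The longest bars with 1 library apart are those of 142 genes with CT baseline low and 117 with CT TAC low.

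Lists of genes by function and by cell type lay on both sides of 0. Among lists with at least 7 measured genes, the lowest medians were those of major histocompatibility complex (MHC) class II genes, stress and fetal genes, collagens, endoplasmic reticulum (ER) chaperones, other matrix proteins, chemokines and macrophage markers. The highest were those of immediate early genes, targets of the oxidative stress factor Nrf2, and fatty acid oxidation. Cardiomyocyte markers, the citric acid cycle, proteasome subunits and adult sarcomere genes lay closer to the median of all genes, and among them only Lmod3 and Tnnc1, both sarcomere genes, were called.

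**Figure D3:**
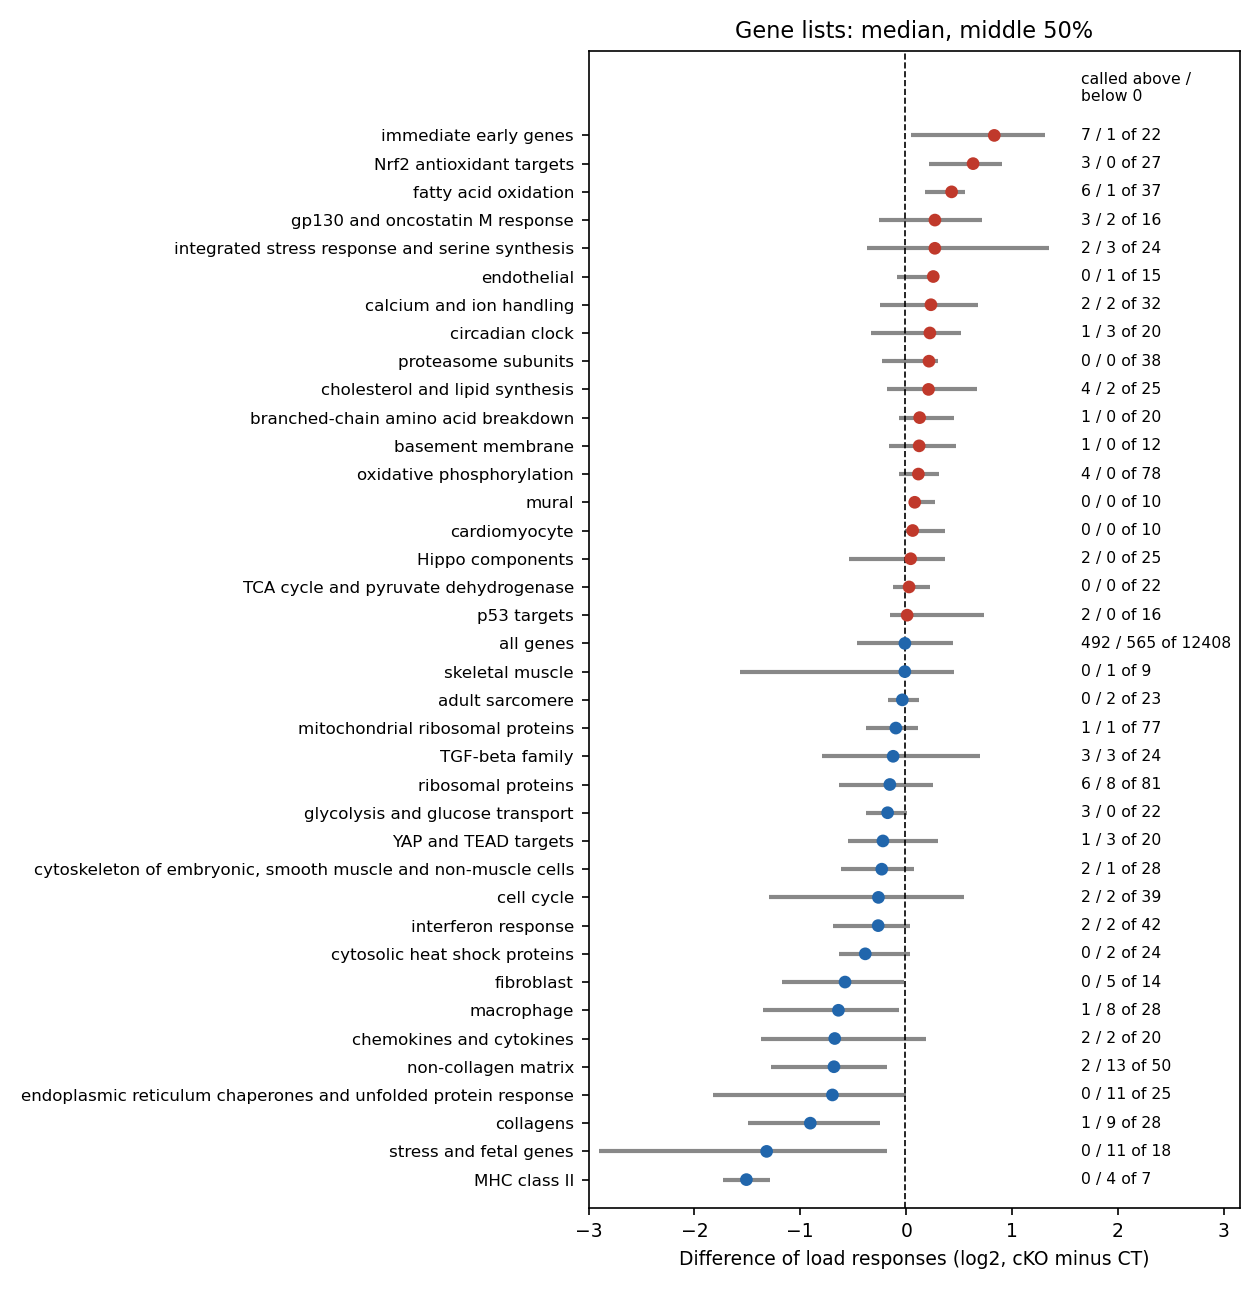
Difference of load responses (horizontal axis, log2) for each gene list, with the median of its members (dot), their middle 50% (bar) and, at the right, the members called above and below 0. The dashed line is the median of all genes, -0.01. MHC class II, stress and fetal, collagen and ER chaperone lists lie to its left, and immediate early, Nrf2 and fatty acid lists to its right.

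Stress and fetal genes increased less with load in the knockout, and in the unloaded knockout they were above the unloaded control. The median response of the list was 1.49 in CT and 0.33 in cKO, and its median genotype difference (cKO minus CT) was 0.91 at baseline and 0.11 after TAC. Of 18 measured members 11 (61.1%) were called below 0 and none above, and the median difference was -1.32. CT baseline stood apart as the low library in 9 of the 18, against 7.61% of all genes. Ankrd1, a stretch-responsive protein of the sarcomere and a target of YAP, was at 827 CPM in the control at baseline and 8081 CPM after TAC, and at 9962 CPM in the knockout at baseline and 8624 CPM after TAC. Its load response was 3.29 in CT and -0.21 in cKO, and the difference was -3.50 (-3.57 to -3.43). Nppa, the atrial natriuretic peptide, was at 129, 3594, 2035 and 6487 CPM. It increased with load in both genotypes, by 4.79 in CT and 1.67 in cKO, and the library with the highest level was cKO TAC (difference -3.12, -3.29 to -2.96). Acta1, skeletal alpha-actin, a sarcomeric actin of the fetal heart, was at 661, 9347, 1976 and 2906 CPM. Unlike Nppa, it was lower in cKO TAC than in CT TAC, by -1.69 on the log2 scale (difference -3.27, -3.36 to -3.17).

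Further members had differences of the same sign. Nppb, the B-type natriuretic peptide, was at 171, 1066, 949 and 1602 CPM (difference -1.88, -2.06 to -1.72), and its reads were partly shared with other places in the genome, which makes the value uncertain. Gdf15, a secreted stress cytokine, was at 2.59, 12.5, 29.4 and 26.1 CPM (difference -2.24, -3.67 to -1.06). Both knockout libraries were above both control libraries. Uck2, a pyrimidine salvage kinase, was at 56.3, 124, 110.1 and 116 CPM (difference -1.05, -1.46 to -0.65). Nmrk2, a kinase of the nicotinamide riboside route to NAD, had 1 read in CT baseline and was at 0.371, 17.5, 4.89 and 7.61 CPM. Its difference was -3.79, with a counting interval of -7.05 to -1.74. Ankrd2, a relative of Ankrd1, had 0 reads in CT baseline. Its difference was -3.78, with a counting interval of -9.55 to -0.70. With 3 reads put in place of the 0, its ratio of TAC to baseline was 5.55-fold lower in cKO than in CT. Flnc, with partly shared reads, was called with cKO TAC low (difference -1.04, -1.18 to -0.90). Csrp3 also lay below 0 and was not called (difference -0.68, -0.81 to -0.55).

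Some other members of the list had differences near 0. Myh7, the slow myosin heavy chain of the fetal ventricle, was at 4459, 6611, 5194 and 8004 CPM, and its difference was 0.06 (0.00 to 0.11). Rcan1, a calcineurin inhibitor and target, had load responses of 1.26 in CT and 1.09 in cKO, and its difference was -0.17 (-0.79 to 0.45). Xirp1, a protein of the intercalated disc, was at 251, 263, 241 and 252 CPM, and its difference was 0.00 (-0.26 to 0.25). By counting error alone, these intervals leave out the 2-fold limit on both sides.

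**Figure D4:**
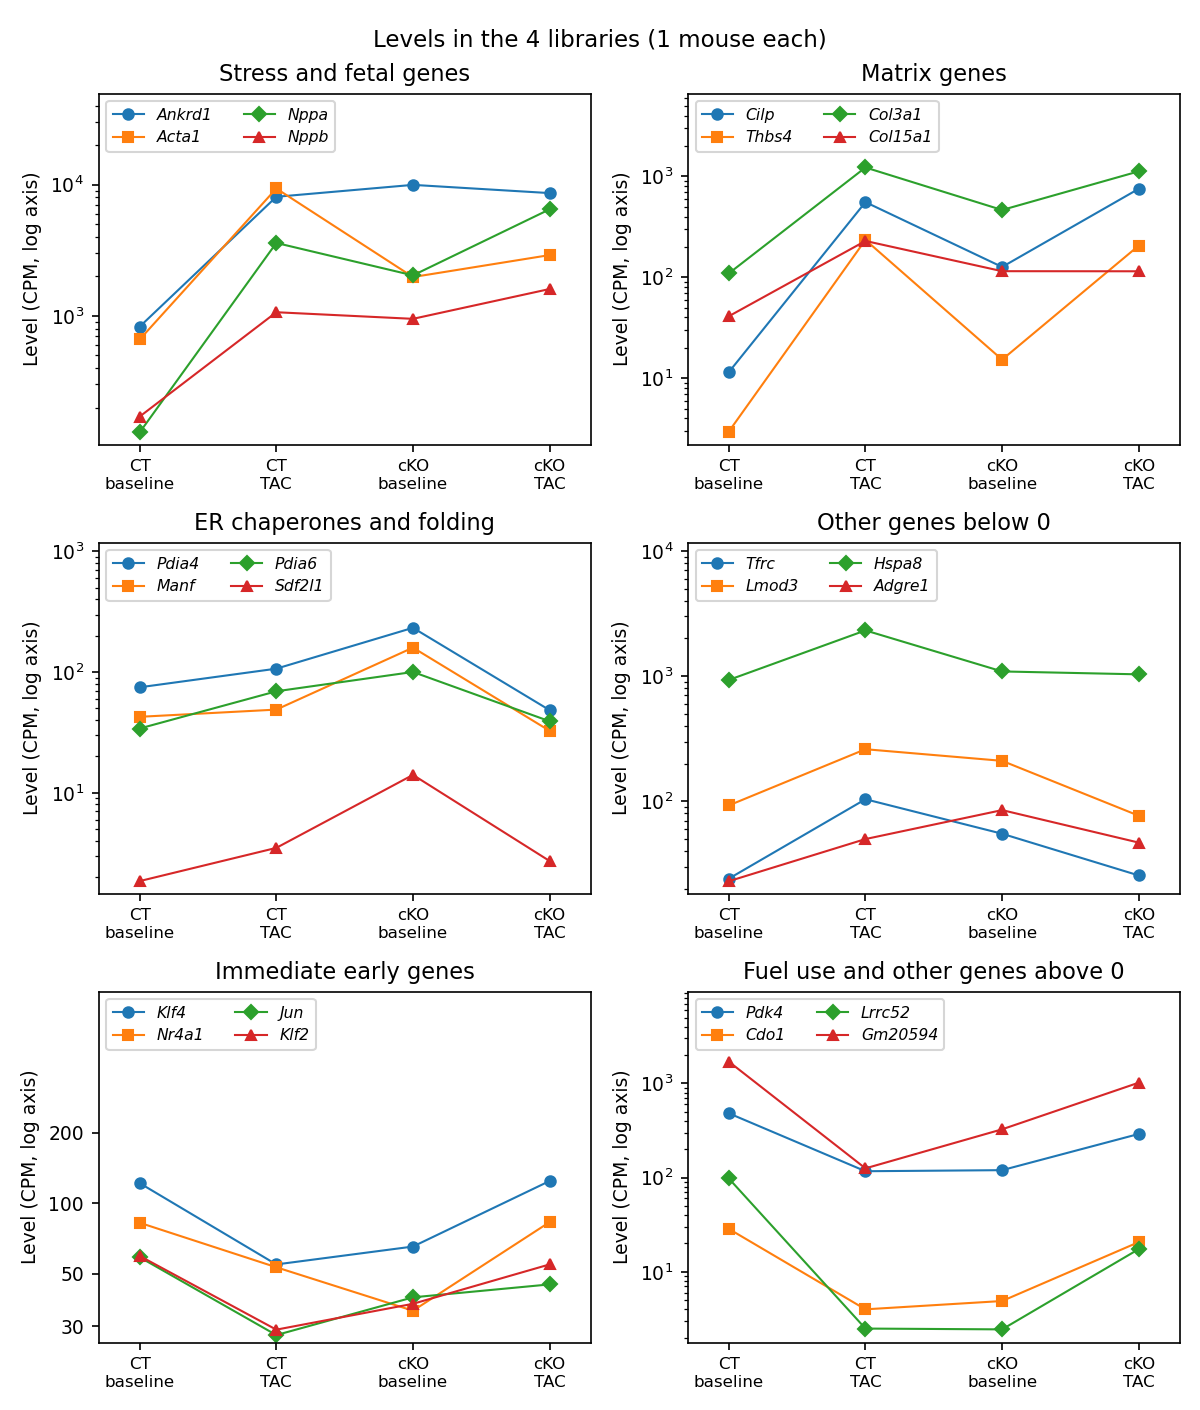
Levels (vertical axes, CPM, log axis) of 4 genes per panel in the 4 libraries (horizontal axes), 1 mouse each, with lines to guide the eye. The stress and matrix panels have CT baseline as the lowest library, the ER panel has cKO baseline as the highest, and the lower panels show CT baseline and cKO TAC high beside CT TAC and cKO baseline.

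Collagens and other matrix proteins had medians below 0, while basement membrane genes did not. Of 28 collagens 9 (32.1%) were called below 0 and 1 above, with a median difference of -0.91, and of 50 other matrix genes 13 (26%) were called below 0 and 2 above, with a median of -0.68. The median response of the collagens was 1.39 in CT and 0.79 in cKO, and their median genotype difference was 0.90 at baseline and 0.01 after TAC. By this median the loaded hearts lay close together and the unloaded hearts apart. Col3a1, a fibrillar collagen of stretchable tissue, was at 109, 1224, 464 and 1121 CPM (difference -2.21, -2.42 to -1.9998). Col15a1, a collagen of the basement membrane zone, was at 41.1, 229, 115 and 115 CPM. Its load response in cKO was 0.00, and its difference was -2.47 (-2.89 to -2.06). Cilp, a matrix protein that binds TGF-beta, was at 11.5, 556, 127 and 753 CPM (difference -2.97, -3.56 to -2.45). Thbs4, thrombospondin 4, made by cardiomyocytes and fibroblasts under stress, was at 2.97, 235, 15.3 and 206 CPM (difference -2.38, -3.63 to -1.36). With 8 reads in CT baseline, its interval is wide.

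Tnc, tenascin C, an adhesion-modulating protein of wounds, was at 2.59, 9.98, 16.5 and 9.79 CPM (difference -2.49, -4.10 to -1.15). Lox went the other way. Lox encodes lysyl oxidase, which crosslinks collagen, and it was at 5.19, 2.496, 3.67 and 21.2 CPM, with cKO TAC standing apart as high (difference 3.31, 1.55 to 5.26). The 12 genes of the basement membrane list had a median of 0.12, with 8 above 0, 1 (8.33%) called above and none below. Of all genes 3.97% were called above 0. The called gene was Lamb3, a laminin chain, at 12.97, 0.998, 4.28 and 4.35 CPM with 2 reads in CT TAC (difference 3.199, 1.08 to 5.74). Col4a3, a basement membrane collagen, had 0 reads in cKO baseline (difference 3.75, 0.08 to 8.57). With 3 reads put in place of the 0, its ratio of TAC to baseline was 3.201-fold higher in cKO than in CT. Fibroblast markers also had more calls below 0 than above, and some of them are on the matrix lists. Of 14 markers 5 (35.7%) were called below 0, against 4.55% of all genes, and none above. None was at 0 reads in any library, and their summed level was 3995, 6669, 5242 and 7832 CPM. The list shares Col1a1 and Col1a2 with the collagens, and Dcn, Lum, Mfap4 and Mfap5 with the other matrix genes. Its median load response was 1.15 in CT and 1.17 in cKO, and its median difference was -0.58. The summed level was higher after TAC in both genotypes and higher in cKO than in CT in both states, and its part in the matrix differences was not tested.

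MHC class II genes and macrophage markers had more calls below 0 than above. MHC class II genes present antigen on macrophages, dendritic cells and B cells. Of 7 measured, 4 were called below 0 (57.1%) and none above, with a median of -1.51. H2-Aa, an alpha chain, was at 16.3, 50.4, 45.3 and 41.3 CPM (difference -1.73, -2.44 to -1.06), so it was low in CT baseline and higher in the other 3. Cd74, the invariant chain, was at 48.4, 77.9, 164 and 69.1 CPM (difference -1.92, -2.38 to -1.48), with cKO baseline high and its reads partly shared. Of 28 macrophage markers 8 (28.6%) were called below 0 and 1 above, with a median of -0.64. CT baseline stood apart as low in 11 of these 28 and in 4 of the 7 MHC class II genes, against 7.61% of all genes. Adgre1, the macrophage marker F4/80, was at 22.98, 49.9, 85.02 and 46.8 CPM (difference -1.96, -2.57 to -1.38). Mgl2, a lectin of resident macrophages and dendritic cells, was at 8.896, 6.99, 18.4 and 2.18 CPM, and there cKO TAC was the low library (difference -2.49, -4.31 to -0.90). Lyve1, a marker of resident macrophages and of lymphatic vessels, was called above 0 (1.13, 0.31 to 1.97). The summed level of the macrophage list was 630.2, 958, 1341 and 1272 CPM, and none of its 28 genes was at 0 reads in any library. Chemokines and cytokines showed no such lean in their calls, with 2 of 20 (10%) above 0 and 2 (10%) below, although 14 lay below 0. Of all genes 3.97% were called above 0 and 4.55% below. Ccl2, which draws monocytes, was at 1.48, 2.496, 19.6 and 3.26 CPM, with cKO baseline high (difference -3.02, -5.38 to -1.04), while Ccl6, another macrophage chemokine, was at 20.02, 4.49, 19.6 and 14.7 CPM, with CT TAC low (difference 1.64, 0.45 to 2.92). Il34, a growth factor of macrophages, had shared reads and a difference of 1.84 (0.04 to 3.77), a call lost with an exact interval, as was that of Cxcl16, a chemokine below 0 at -1.43 (-2.99 to -0.11).

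The ER list had another shape: summed over its genes, the level was highest in the unloaded knockout and lowest in the loaded knockout, with the 2 control hearts close to each other. These genes encode the chaperones, disulfide isomerases and sensors of the unfolded protein response, which matches the folding capacity of the ER to its load of secreted and membrane proteins. Of 25 members 11 (44%) were called below 0 and none above, with a median of -0.70. The median response was 0.02 in CT and -0.97 in cKO. The summed level was 3963, 4112, 6804 and 3091 CPM. Pdia4, a disulfide isomerase, was at 74.9, 107, 233 and 48.4 CPM, with load responses of 0.51 in CT and -2.26 in cKO (difference -2.77, -3.21 to -2.34). Manf, a secreted factor released by stressed ER, was at 42.6, 48.9, 159.7 and 32.6 CPM (difference -2.47, -3.04 to -1.92). Pdia6, another isomerase, was at 34.1, 69.4, 100.3 and 39.2 CPM. It was called in opposite directions, higher with load in CT and lower in cKO (difference -2.36, -2.92 to -1.82). Sdf2l1, a cochaperone, was at 1.85, 3.49, 14.1 and 2.72 CPM (difference -2.95, -5.22 to -1.06). The cKO baseline library was the highest of the 4 in each of these genes. It stood apart as high in 9 of the 25 members, against 4.88% of all genes.

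The 14 members not called included sensors and regulators of the response. Their differences were -0.67 for Xbp1 and 0.71 for Atf6, both transcription factors of the response, and 0.09 for Ern1, the sensor that splices Xbp1. Herpud1, which serves degradation of ER proteins, was at 0.93 (0.59 to 1.27). These regulators, Lyve1 and those genes of the next paragraph that are not named above lie outside the naming rule and were picked after their values were seen, for their role, their sign or their promoter.

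ER chaperone genes are known for the ER stress response element (ERSE), CCAAT and CCACG separated by 9 bases of any kind, which ATF6 and NF-Y bind. The element was searched on both strands in RefSeq promoters of build GRCm38.p6, from 250 bases before to 50 after each gene's start. It was found in 39 of 32851 promoters (0.119%) and in 8 of the 19 list members with an entry (42.1%). Of the 8 genes with it, 5 were called below 0 (Hspa5, Calr, Hsp90b1, Pdia6 and Creld2) and the median difference was -1.43. Of the 11 without it, 4 were called below 0 and the median was -0.67. Canx, Dnajc3 and Syvn1 carry it and were not called. The 250 bases before the start of 3 of the called genes are shown because they show the element among genes that moved together, with its CCAAT and CCACG parts in capitals. In Creld2 it lies on the opposite strand, so the capitals read CGTGG and ATTGG.
Hspa5 (chr2:34771840-34772089, plus strand): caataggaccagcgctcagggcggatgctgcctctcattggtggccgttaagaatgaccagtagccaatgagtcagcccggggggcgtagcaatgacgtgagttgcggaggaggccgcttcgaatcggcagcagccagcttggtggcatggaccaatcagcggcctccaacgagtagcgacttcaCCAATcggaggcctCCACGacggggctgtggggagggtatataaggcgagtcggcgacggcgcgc
Pdia6 (chr12:17266339-17266588, plus strand): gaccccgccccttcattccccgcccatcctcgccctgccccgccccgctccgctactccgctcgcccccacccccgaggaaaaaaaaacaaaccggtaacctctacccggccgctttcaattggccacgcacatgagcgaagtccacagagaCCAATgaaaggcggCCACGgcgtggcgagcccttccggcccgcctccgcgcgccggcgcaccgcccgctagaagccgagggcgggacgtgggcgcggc
Creld2 (chr15:88819396-88819645, plus strand): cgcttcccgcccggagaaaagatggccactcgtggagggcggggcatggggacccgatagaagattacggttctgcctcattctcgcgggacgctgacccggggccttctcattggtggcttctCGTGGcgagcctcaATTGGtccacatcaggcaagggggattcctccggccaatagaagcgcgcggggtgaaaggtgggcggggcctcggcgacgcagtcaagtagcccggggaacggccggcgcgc
Hspa5, the ER chaperone BiP, was at 1083, 968, 1963 and 641 CPM (difference -1.45, -1.58 to -1.33). Creld2, a secreted ER stress protein, was at 21.1, 38.4, 51.4 and 20.7 CPM (difference -2.14, -2.90 to -1.43). A match of letters is a description and shows neither binding nor a cause.

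**Figure D5:**
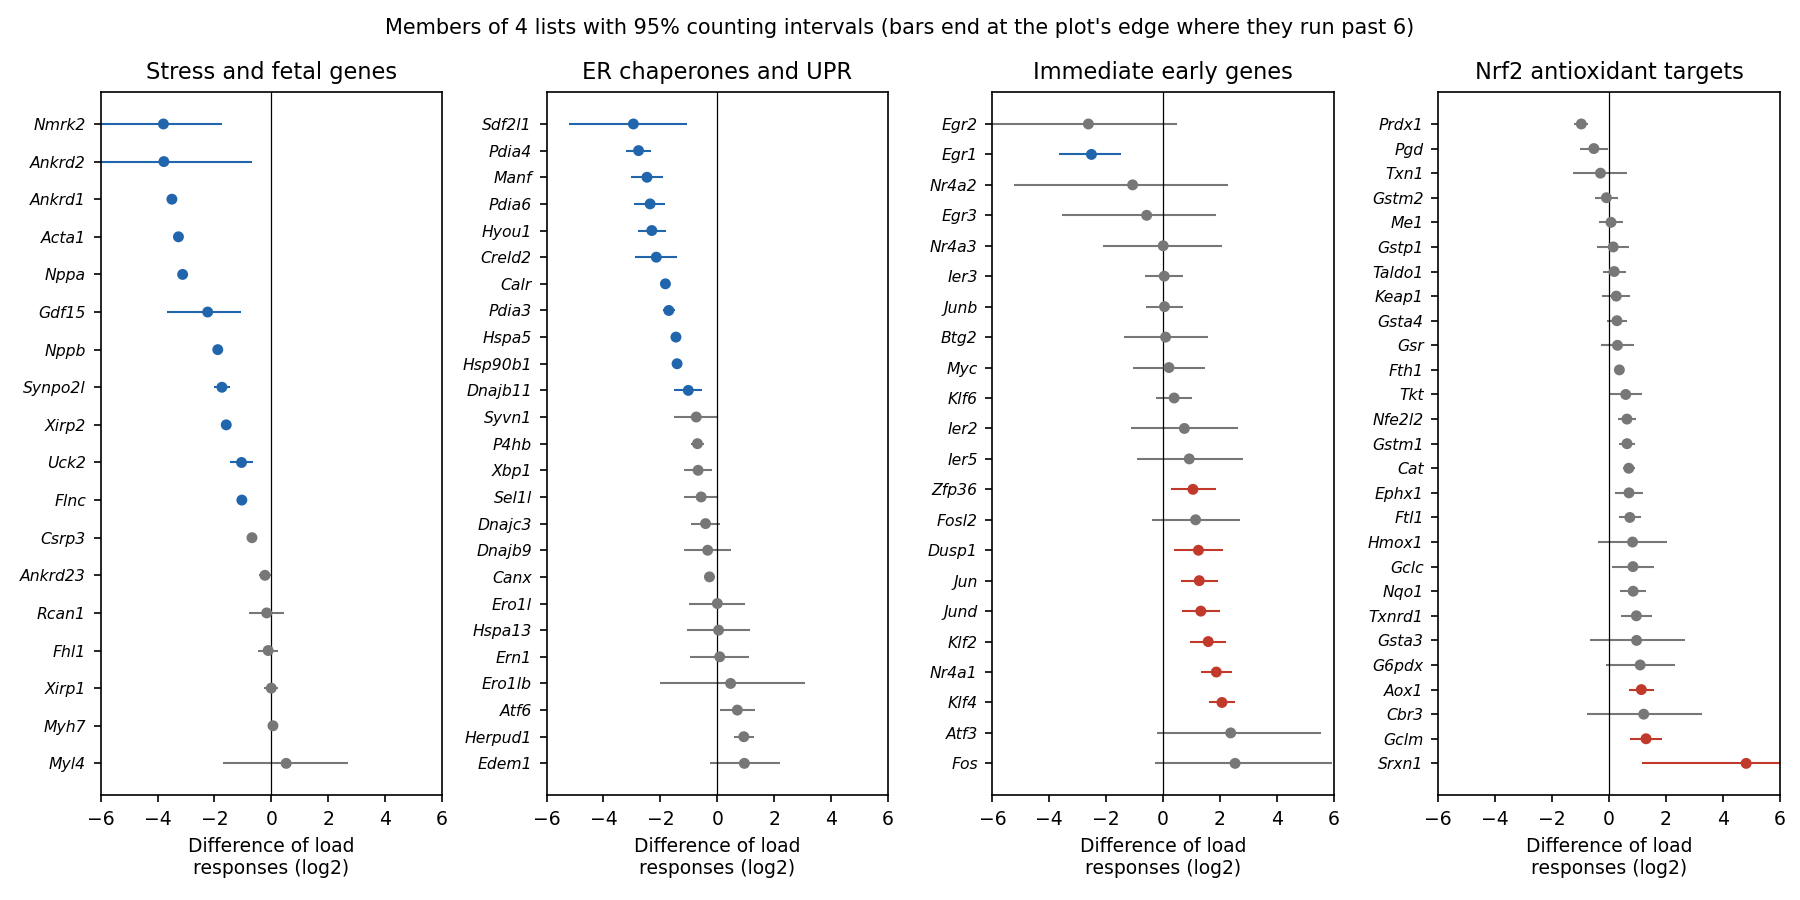
Difference of load responses (horizontal axes, log2) of each member of 4 lists with its 95% counting interval (bar), called genes in red (above 0) or blue (below 0) and others in grey. The stress and ER panels hold 11 called members each, all below 0, and the immediate early panel 7 above 0 with Egr1 below.

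Hspa8 and Tnnc1 were high in the loaded control alone. Hspa8, the constitutive HSP70 chaperone of the cytosol, was at 932, 2317, 1089 and 1033 CPM (difference -1.39, -1.51 to -1.27). With Hspb3, a small heat shock protein of muscle that was not called with a prior of 5 reads, it was 1 of 2 members called of 24 heat shock genes, whose median was -0.39. Both were called below 0 (8.33%, against 4.55% of all genes). Tnnc1, cardiac troponin C, was at 3701, 9372, 3993 and 4995 CPM (difference -1.02, -1.08 to -0.96). Lmod3, a leiomodin that nucleates thin filaments, was at 92.7, 261, 210.4 and 76.7 CPM, as a crossed pair (difference -2.94, -3.30 to -2.59). Tnnc1 and Lmod3 were the 2 members called of 23 adult sarcomere genes, both below 0 (8.7%, against 4.55% of all genes). The median of the list was -0.04. Tfrc, the transferrin receptor that brings iron into cells, was at 24.1, 104, 55.1 and 25.6 CPM, again as a crossed pair (difference -3.18, -3.85 to -2.55).

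Immediate early genes had the opposite sign. They encode transcription factors and phosphatases that answer stimuli within minutes. Of 22 members 7 (31.8%) were called above 0 and 1 below, 18 lay above 0 and the median was 0.83. Klf4, a zinc finger factor of vessels and muscle, was at 122, 54.9, 65.4 and 125 CPM (difference 2.07, 1.62 to 2.53). Nr4a1, an orphan nuclear receptor, was at 82.7, 53.4, 34.9 and 83.2 CPM (difference 1.87, 1.32 to 2.42). Klf2, a factor induced by blood flow in endothelium, was at 59.7, 28.95, 37.3 and 54.9 CPM (difference 1.58, 0.96 to 2.22). All 3 were crossed pairs, with CT baseline and cKO TAC high. Over the list, 5 of the 22 were crossed pairs, against 6.08% of all genes. CT TAC stood apart as low in 6, against 8.3% of all genes. Of the 4 members below 0, Egr1, an early growth response factor, was the one called. It was at 6.67, 26.95, 18.96 and 12.5 CPM (difference -2.52, -3.66 to -1.50).

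Clock genes, which follow the time of day, were called in both directions. Dbp, an output of the clock, was at 9.64, 76.9, 17.7 and 34.8 CPM (difference -1.98, -2.88 to -1.15), and Arntl, the core activator BMAL1, with partly shared reads, was at 58.2, 11.5, 34.9 and 26.9 CPM (difference 1.93, 1.11 to 2.77). In both, CT TAC was at one end. Of 20 clock genes 1 (5%) was called above 0 and 3 (15%) below, against 3.97% and 4.55% of all genes. The median was 0.22.

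Fatty acid oxidation genes had a median response further below 0 in the control. Of 37 fatty acid oxidation genes 33 lay above 0, 6 (16.2%) were called above and 1 below, and the median was 0.43. The median response was -0.65 in CT and -0.24 in cKO, and CT baseline stood apart as high in 14 of the 37, against 5.95% of all genes. Pdk4, a kinase that inhibits pyruvate dehydrogenase when fat is burnt, was at 482, 117, 119.9 and 290.4 CPM as a crossed pair (difference 3.31, 3.01 to 3.62). Ucp3, an uncoupling protein homologue of the inner membrane, was at 35.6, 6.99, 7.34 and 5.44 CPM. It was low in all but CT baseline (difference 1.87, 0.46 to 3.31). Acot1, a cytosolic thioesterase that frees fatty acids from coenzyme A, was the member called below 0, at 14.5, 22.96, 29.97 and 12.5 CPM (difference -1.88, -2.85 to -0.97). Plin4, a lipid droplet coat protein on the adipocyte list, was at 342, 101, 200.02 and 209 CPM (difference 1.82, 1.52 to 2.13). The only other adipocyte marker listed, Cfd, was called below 0, at 0.371, 2.995, 4.28 and 0 CPM (difference -5.30, -11.48 to -1.76). It had 0 reads in cKO TAC and 1 in CT baseline. With 3 reads put in place of the 0, its ratio of TAC to baseline was 21.2-fold lower in cKO than in CT.

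Other metabolic lists moved less. Of 78 oxidative phosphorylation genes 4 (5.13%) were called above 0 and none below, with a median of 0.12, which is close to the background of 3.97%. Usmg5, a small subunit of ATP synthase outside that list, was at 186, 32.9, 95.4 and 175 CPM, with CT TAC low (difference 3.35, 2.90 to 3.82). Of 22 glycolysis genes 3 (13.6%) were called above 0 and none below, but 16 lay below 0 and the median was -0.18. Pfkfb1, a regulator of glycolysis, was at 40.4, 10.5, 6.73 and 11.4 CPM (difference 2.62, 1.42 to 3.88), and Eno1, alpha-enolase, the form of the fetal heart, was at 259.8, 276, 149 and 454 CPM (difference 1.51, 1.25 to 1.77). Pkm, pyruvate kinase, had partly shared reads and a difference of 1.27 (1.16 to 1.38). No gene of the citric acid cycle (22) or the proteasome (38) was called.

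Nrf2 targets, which make glutathione and detoxify peroxides, lay above 0 in 23 of 27 members, with a median of 0.63. Only 3 (11.1%) were called, all above 0. Gclm, the modifier subunit of glutathione synthesis, was at 48.6, 39.9, 40.98 and 83.8 CPM, with cKO TAC high (difference 1.30, 0.73 to 1.88). Aox1, aldehyde oxidase, was at 111, 57.4, 96.03 and 109.8 CPM, with CT TAC low (difference 1.14, 0.71 to 1.57). Srxn1, sulfiredoxin, had 0 reads in cKO baseline. With 3 reads put in place of the 0, its ratio of TAC to baseline was 7.87-fold higher in cKO than in CT. CT TAC stood apart as low in 8 of the 27, against 8.3% of all genes. The cKO TAC library stood apart as high in 4, against 5.34% of all genes. Most members thus shared a sign, while no 1 library stood apart in most of them.

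Interferon-induced genes were called at a share near that of all genes. Of 42 members 2 (4.76%) were called above 0 and 2 (4.76%) below, 30 lay below 0 and the median was -0.26. Both called above 0 were guanylate-binding proteins, GTPases of defence against intracellular pathogens: Gbp6 at 116, 11.98, 28.1 and 21.8 CPM (difference 2.86, 2.03 to 3.73) and Gbp10 at 78.95, 11.5, 17.1 and 14.7 CPM (difference 2.52, 1.56 to 3.51). In both, CT baseline was high and the other 3 libraries low. These genes have close relatives beside them, so their values are uncertain. Cebpb, a factor downstream of interleukin-6 type cytokines, with partly shared reads, was at 50.04, 10.3, 20.8 and 30.3 CPM (difference 2.76, 1.88 to 3.68). The gp130 list had 3 members (18.8%) called above 0 and 2 (12.5%) below of 16, and a median of 0.27. Of all genes 3.97% were called above 0 and 4.55% below.

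Hippo components and targets of YAP had median differences near 0, though single members were called. Of 25 components 2 (8%) were called, both above 0, and the median was 0.04, which turned below 0 under the filters on low levels and without genes that share reads. Yap1 itself had load responses of 0.10 in CT and 0.08 in cKO, and its difference was -0.01 (-0.42 to 0.39). Lats1, a kinase of the cascade, was at 26.7, 44.4, 29.97 and 52.8 CPM (difference 0.08, -0.59 to 0.74), and Wwtr1, which encodes TAZ, had a difference of 0.75 (0.22 to 1.28) with partly shared reads. The called components were Amotl2, an angiomotin that holds YAP in the cytoplasm, at 88.6, 28.95, 89.9 and 75.05 CPM (difference 1.34, 0.81 to 1.87), and Tead3, a TEAD factor, at 37.8, 18.97, 25.7 and 33.2 CPM (difference 1.34, 0.57 to 2.12).

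Of 20 YAP and TEAD targets 1 (5%) was called above 0 (Amotl2) and 3 (15%) below (Ankrd1, Tgfb2 and Fstl1). The shares of all genes were 3.97% and 4.55%, and the median of the list was -0.22. Ctgf, a matricellular growth factor and standard target, was at 81.2, 291, 354 and 852 CPM. It was higher in cKO in both states. It increased with load in both genotypes, by 1.84 in CT and 1.27 in cKO (difference -0.57, -0.84 to -0.31). Cyr61, its relative, was at 94.2, 118, 81.4 and 126 CPM (difference 0.31, -0.09 to 0.71). Tgfb2, a growth factor of fibrosis, was at 3.34, 11.5, 22.02 and 20.7 CPM (difference -1.74, -3.10 to -0.56). Fstl1, a secreted glycoprotein of the stressed heart, was at 25.9, 141, 80.1 and 187 CPM (difference -1.21, -1.70 to -0.75).

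The core of the TEAD motif, GGAATG on either strand, was found in 14.7% of all promoters of the same window and in 7 of 15 promoters of the target list (46.7%). The 7 genes with it had a median difference of 0.14, with 1 called above 0 and 1 below. The 7 without it had a median of -0.30, with 2 called below 0. Ankrd1 and Ajuba each carry 2 copies, and the difference of Ajuba was -0.04 (-2.07 to 1.93), which was not called. The sequence before Ankrd1 is shown, with its 2 copies in capitals, because Ankrd1 has the most negative difference of the list.
Ankrd1 (chr19:36119845-36120094, minus strand, GRCm38.p6, RefSeq): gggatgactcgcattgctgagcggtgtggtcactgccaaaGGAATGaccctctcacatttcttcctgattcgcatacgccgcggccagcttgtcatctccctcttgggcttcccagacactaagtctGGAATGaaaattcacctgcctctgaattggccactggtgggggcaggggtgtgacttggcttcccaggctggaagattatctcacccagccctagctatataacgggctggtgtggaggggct

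Genes of calcium and ion handling were called at shares near those of all genes, 2 of 32 (6.25%) above 0 and 2 (6.25%) below, with a median of 0.23. One of the 2 above, Kcnj3, was not called with an exact interval. Gja1, connexin 43 of the gap junctions between cardiomyocytes, was at 204, 253, 425 and 243 CPM, with cKO baseline high (difference -1.11, -1.36 to -0.87). Hcn2, a pacemaker channel, was at 46.3, 45.9, 61.2 and 23.4 CPM, with cKO TAC low (difference -1.36, -2.01 to -0.72). Scn4a, the sodium channel of skeletal muscle, was at 91.2, 34.4, 33.6 and 31.00 CPM, with CT baseline high (difference 1.28, 0.62 to 1.93). Of 25 lipid synthesis genes 4 (16%) were called above 0 and 2 (8%) below, with a median of 0.21. Srebf1, a transcription factor of fatty acid synthesis, was at 73.4, 45.4, 31.8 and 51.7 CPM (difference 1.38, 0.78 to 1.98). Scd4, a fatty acid desaturase, was at 8.15, 4.99, 27.5 and 50.03 CPM. It was above the control in the knockout in both states, and further so after TAC (difference 1.51, 0.35 to 2.70).

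Growth factors of the TGF-beta family and genes of the integrated stress response were called in both directions, with 3 (12.5%) above 0 and 3 (12.5%) below of 24, and 2 (8.33%) above and 3 (12.5%) below of 24. Bmp7, a bone morphogenetic protein, had 1 read in CT baseline (difference -3.61, -7.59 to -1.01), and Tgfbr1, the type I receptor, with partly shared reads, was at 12.2, 6.82, 6.93 and 13.2 CPM (difference 1.69, 0.37 to 3.05). Slc7a5, a carrier of large neutral amino acids, was at 5.93, 1.997, 3.67 and 6.53 CPM (difference 2.12, 0.19 to 4.25), while Psph, the last enzyme of serine synthesis, was at 0.741, 3.99, 4.28 and 1.09 CPM with 2 reads in CT baseline and 2 in cKO TAC (difference -3.46, -6.85 to -1.05). Gdf15, described above, is on both lists.

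Of 39 cell cycle genes 2 (5.13%) were called above 0 and 2 (5.13%) below, near the shares of all genes. Mki67, a marker of dividing cells, was at 5.93, 29.9, 17.7 and 27.7 CPM (difference -1.61, -2.69 to -0.65). Cdkn1a, the cell cycle inhibitor p21, was at 117, 27.95, 68.5 and 53.8 CPM (difference 1.70, 1.14 to 2.27). Rrm2, a subunit of ribonucleotide reductase, had 1 read in cKO baseline and a difference of 3.53 (0.57 to 7.06). Of 81 ribosomal protein genes 6 (7.41%) were called above 0 and 8 (9.88%) below. Rps24 (2.22) and Rpl27 (-2.30) had the largest of these differences. Such genes have many near-identical copies in the genome, and their values are uncertain.

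Among genes with whole reads and a mean of at least 5 CPM, the 3 widest differences above 0 were crossed pairs. Lrrc52, an auxiliary subunit of potassium channels, had the widest at 7.65 (5.97 to 9.71), with 264, 5, 4 and 32 reads, or 97.9, 2.496, 2.45 and 17.4 CPM. Gm20594, a predicted gene, was at 1703, 125, 325 and 1018 CPM (difference 5.40, 5.18 to 5.64). Cdo1, cysteine dioxygenase, which starts the breakdown of cysteine to taurine, was at 28.5, 3.99, 4.89 and 20.7 CPM (difference 4.67, 3.29 to 6.25). Each was high in CT baseline, low in CT TAC and cKO baseline, and higher again in cKO TAC. Pdlim3, an adaptor of the Z-disc, was at 14.1, 11.98, 3.06 and 36.98 CPM, low in cKO baseline and high in cKO TAC (difference 3.63, 2.24 to 5.14). Ttr, the carrier transthyretin, had 1 read in cKO baseline and a difference of 3.82 (1.49 to 6.62).

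Below 0, Atp1a4, a sodium pump subunit best known from sperm, was at 6.301, 45.9, 20.8 and 4.35 CPM (difference -4.91, -6.33 to -3.71). Sumo2, a small modifier protein with close copies in the genome, had 3 reads in CT baseline and was at 1.11, 41.4, 30.6 and 33.2 CPM (difference -4.59, -6.52 to -3.26). Lrp8, a receptor of reelin and apolipoprotein E, had 1 read in CT baseline (difference -4.12, -7.39 to -2.07). Ckmt1, a mitochondrial creatine kinase of tissues other than muscle, was at 1.48, 2.496, 19.6 and 2.72 CPM, with cKO baseline high (difference -3.24, -5.67 to -1.23). Aqp8, a water channel, was at 1.85, 17.97, 3.06 and 2.72 CPM, with CT TAC high (difference -3.12, -5.47 to -1.19). Ppp1r14c, an inhibitor of protein phosphatase 1, was at 20.02, 30.9, 29.97 and 6.53 CPM, with cKO TAC low (difference -2.73, -3.82 to -1.74). The naming rule takes genes from each library pattern, so by that choice each of the 4 libraries stands apart in some of these examples.

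Markers of other cells moved with some results. Hemoglobin genes had differences above 0: Hbb-bs was at 549.7, 363, 783 and 1126 CPM (difference 1.12, 0.96 to 1.28) and Hbb-bt had 1.08 (0.91 to 1.24). The summed level of the 4 erythroid genes listed was 1093, 737, 1566 and 2242 CPM, and Slc4a1 was at 0 reads in CT TAC. Endothelial markers had 1 of 15 (6.67%) called below 0, against 4.55% of all genes, and a median of 0.26. Mural markers had none of 10 called and a median of 0.08. Of the neutrophil list 4 genes were listed, with a summed level of 26.9, 11.5, 13.5 and 14.4 CPM, S100a9 was called above 0 (2.0025, 0.57 to 3.51) and S100a8 was at 0 reads in cKO TAC. Atrial genes other than Nppa included Myl4 (0.52, -1.71 to 2.71), which was not called, and Kcnj3 at 1.20 (0.05 to 2.36), which had shared reads and was not called with an exact interval. The part of blood or tissue content in the differences above was not tested.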

How the data were processed

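Heart RNA of 4 mice, 1 library per group, was sequenced on Illumina libraries, per the labels' protocols. The tools named in the submitters' processing notes are HISAT2, edgeR and CASAVA, with mm10 as the build and neither versions nor roles. What counted the reads, and with which annotation and gene filter, is not given in the sources used here. Values were deposited as log2 CPM, a unit inferred here from the numbers. They fall on a grid whose step is 1 read, so reads were recovered by division, with 88.6% to 89.0% of genes whole (within 0.01) in each library. In 2449 genes (19.7%) parts of reads occurred in some library, and such genes are named as sharing reads. The authors added 0.489 CPM to every gene before the logarithm, as the grid shows, which understates the change of low genes.

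The difference of load responses and the levels come from the deposited log2 values. The call needed at least 1 on the log2 scale and a 95% interval (log-linear interaction of the 4 read counts, 0.5 added to each) without 0, with no filter on low values. The design leaves 0 residual degrees of freedom, so no count test was run. Genes were named by a fixed rule: Sav1, the 15 most positive and most negative called genes with whole reads and a mean of at least 5 CPM, the 4 widest called members of each list (the 2 widest members where fewer than 2 were called), the 4 widest called genes of each library pattern under the same filter, and any member of the stress and fetal, YAP and TEAD target, and Hippo lists. Genes beside the 2-fold limit and cell markers at 0 reads are named besides. Members, lists and rules were chosen with earlier results of these data known. Scripts (Python 3.11.15, numpy 2.4.6, pandas 2.3.3, SciPy 1.17.1, matplotlib 3.10.9) were tested on simulated data. Scaling, prior count, filters, shared reads, an exact interval and the library rule were varied.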

Additional observations from a re-analysis of the deposited data

Results flagged for a closer look

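The load responses of 25 genes were called in opposite directions in the 2 genotypes, and 16 of them are among the named genes. With 1 library per group the difference was not tested. Higher with load in CT and lower in cKO were Atp1a4 (difference -4.91), the adaptor gene Sh2d4a (-3.27), the galactosyltransferase gene B3galt2 (-3.26), Tfrc (-3.18), the retinoic acid synthesis gene Aldh1a2 (-3.03), Lmod3 (-2.94) and Pdia6 (-2.36). Lower in CT and higher in cKO were Rps24 (2.22, with shared reads), Zc3h6 (3.13), the actin-binding protein gene Twf1 (3.17), Pdk4 (3.31), Wfdc1 (4.25), Zfp771 (4.27), Cdo1 (4.67), Gm20594 (5.40) and Lrrc52 (7.65). Aldh1a2 and Zc3h6 are the genes of these 16 whose levels form no crossed pair.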

How the results depend on the processing

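No setting reversed a named difference, and no library can be left out, since the difference needs all 4. No paired analysis was possible because each group holds 1 library. With a mean of at least 20 CPM required, 246 genes were called above 0 and 219 below, of 5931 tested. When the gap had to exceed 2 times the range of the other 3 libraries, 24.2% of called genes had 1 library apart in place of 57.7%. The other settings gave 417 to 499 genes above 0 and 462 to 588 below. Of 149 named calls, 8 were lost with the exact interval (Akr1c19, Cxcl16, Gbp7, Il34, Kcnj3, Mthfd2, Scd2 and Tagln), 4 with a prior of 5 reads (Gbp7, Hspb3, Myl9 and Tagln) and 1 with upper-quartile scaling (Atp5h). List medians changed sign for cell cycle and Hippo components under the CPM filters, for Hippo components without shared reads, and for p53 targets under upper-quartile scaling. Depth limits low genes: 27 called genes had a library with 0 reads, and 178 had shared reads.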
